A study of Mus musculus with 8 samples.

Results

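Tyrp1 and 6 other melanocyte genes, Dct, Tyr, Mlana, Mitf, Slc45a2 and Oca2, were examined in dorsal root ganglia, 7 of the 21878 genes measured. The set was chosen from Tyrp1's own measured response, which was opposite in direction after nerve injury in the dKO and WT ganglia, and the other 6 genes were taken as its partners in pigment cells. Tyrp1's values are therefore given as a description, with no test, and the question tested is whether its partners moved with it. No partner was seen to do so: 5 of the 6 were at or close to 0 in every library. Mitf, the remaining one, did not pass the main test in any comparison. With genes of low level also tested, Mitf passed after injury in dKO ganglia, in the direction opposite to that of Tyrp1.

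All mice were C57BL/6 and carried floxed alleles of Myh9 and Myh10, the genes of the non-muscle myosin II heavy chains A and B. Lumbar 4 and 5 ganglia, which hold the cell bodies of sensory neurons whose axons run in the sciatic nerve, were taken 3 days after surgery. The 4 groups, of 2 libraries each, were dKO SNI (Advillin-Cre with the floxed alleles, sciatic nerve cut), dKO sham (Advillin-Cre with the floxed alleles, sham surgery), WT SNI (floxed alleles without Cre, sciatic nerve cut) and WT sham (floxed alleles without Cre, sham surgery). SNI is the sample names' word for the axotomy. Advillin-Cre acts in sensory neurons, so glia, fibroblasts, macrophages and any pigment cells of dKO ganglia should keep both myosin genes, and the WT group does not control for Cre itself. The labels do not say whether the 2 libraries of a group came from different animals, so the p-values measure only the spread between libraries, which may be technical.

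Melanocytes arise from the neural crest, as do the neurons and glia of these ganglia, and make melanin inside melanosomes. Tyrosinase (Tyr) catalyses the rate-limiting step, and Dct and Tyrp1 act after it on the way to eumelanin. Mitf is the transcription factor that drives these genes, Mlana is a melanosome protein, and Slc45a2 and Oca2 are melanosome membrane transporters.

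The genes lie on separate chromosomes apart from Tyr and Oca2, which are both on chromosome 7. In the GENCODE annotation of GRCm38, Tyrp1 occupies chr4:80834123-80851719 on the plus strand and overlaps no other annotated gene. Dct lies at chr14:118012790-118052244 (minus), Tyr at chr7:87424771-87493512 (minus), Mlana at chr19:29697824-29708634 (plus), Mitf at chr6:97807052-98021349 (plus), Slc45a2 at chr15:11000721-11029233 (plus) and Oca2 at chr7:56239760-56536518 (plus). All 7 are protein-coding.

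The promoters of the 3 melanin enzymes are shown because the enzymes carry the same Mitf-family motif and yet had very different levels here. RefSeq (GRCm38.p6) gave a promoter for 5 of the 7 genes, not Mlana or Slc45a2. The 250 bases before each annotated start are printed 5′ to 3′ on the gene's strand, and capitals mark TCATGTG, the core of the M-box to which Mitf and its relatives bind, on either strand. The windows are chr4:80833963-80834212 for Tyrp1, chr7:87493513-87493762 for Tyr and chr14:118052247-118052496 for Dct. The RefSeq start of Tyrp1 differs from the GENCODE start at 80834123. The end of the Tyrp1 window, with the core, therefore lies inside the GENCODE span given above.
Tyrp1: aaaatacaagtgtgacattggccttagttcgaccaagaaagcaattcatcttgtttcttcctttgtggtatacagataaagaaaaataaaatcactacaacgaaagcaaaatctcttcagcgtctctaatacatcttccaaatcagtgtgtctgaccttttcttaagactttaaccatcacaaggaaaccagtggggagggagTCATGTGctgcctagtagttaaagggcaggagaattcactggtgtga
Tyr: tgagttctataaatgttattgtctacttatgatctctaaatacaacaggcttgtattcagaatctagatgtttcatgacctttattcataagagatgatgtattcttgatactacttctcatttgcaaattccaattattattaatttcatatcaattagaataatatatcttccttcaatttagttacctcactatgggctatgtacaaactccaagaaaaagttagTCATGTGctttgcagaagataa
Dct: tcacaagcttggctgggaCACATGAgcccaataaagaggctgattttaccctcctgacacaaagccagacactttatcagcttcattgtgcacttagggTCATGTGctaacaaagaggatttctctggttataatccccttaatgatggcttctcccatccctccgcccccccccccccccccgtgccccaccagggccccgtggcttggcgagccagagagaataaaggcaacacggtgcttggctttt
Counted from the RefSeq start, the core stood at bases -47 to -41 in Tyrp1, at -22 to -16 in Tyr and at -151 to -145 in Dct. Dct also had it on the opposite strand at -232 to -226. The identical stretch around the core ran to 11 bases between Tyrp1 and Tyr, AGTCATGTGCT, and to 10 bases between Tyrp1 and Dct, GTCATGTGCT, which lies within the longer one. Of 32851 promoter windows of this length, 1068 (3.25%) held TCATGTG on either strand, 51 (0.155%) held the run of 10 bases and 7 (0.0213%) held the run of 11. No window of Mitf (3 annotated starts) or Oca2 held the core. A match is a description of these letters and says nothing of binding in these ganglia.

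The libraries differed in ways that touch the results. Total FPKM (the deposited unit, a fragment count per transcript length and library size) was 278310 to 339920 per library, and 11696 to 12478 genes reached 1 FPKM; read totals are not given, so counting error is unknown. The targeted Myh10 had all dKO libraries below all WT libraries of the same surgery, with 5.31 and 4.12 FPKM in dKO SNI, 12.2 and 14.4 in dKO sham, 13.8 and 10.4 in WT SNI and 18.1 and 23.5 in WT sham. Myh9 was at 24.6 and 24.4 FPKM in dKO SNI, 10.9 and 12.1 in dKO sham, 30.8 and 29.7 in WT SNI and 27.2 and 31.6 in WT sham. Transcripts of 4 Y-linked genes summed to 38.7 and 37.4 FPKM in dKO SNI, 0 and 0.0109 in dKO sham, 0.00745 and 0 in WT SNI and 23.2 and 22.7 in WT sham. Their presence therefore divides the libraries exactly as the opposite injury responses of Tyrp1 do. WT sham 2 stood apart in skeletal muscle markers, whose 10 genes summed to 715 FPKM, against 49.0 to 93.9 in the other 7 libraries. Most of the sum in those 7 libraries was Pvalb alone, at 47.2 to 86.2 FPKM, against 114 in WT sham 2. Ckm and Acta1 were at 138 and 149 FPKM in WT sham 2 and at most 3.17 and 3.01 FPKM in the others.

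Tyrp1 was at 9.83 and 8.53 FPKM in dKO SNI, 25.6 and 23.5 in dKO sham, 16.9 and 16.7 in WT SNI and 3.61 and 4.36 in WT sham. No library of one group overlapped any of another, and the order was dKO sham, WT SNI, dKO SNI and WT sham, from high to low. Tyrp1 was above 61.5 to 90.2% of all genes in a library, many of which were below 1 FPKM. It ranked 2143 from the top in dKO sham 1, where 11979 genes reached 1 FPKM. In WT sham 1 it ranked 8422 of the 11696 genes at that level, and in WT sham 2 it ranked 7853 of 11787. In WT sham it thus lay in the lower part of the expressed genes.

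After axotomy, Tyrp1 averaged 9.18 ± 0.918 FPKM in dKO SNI and 24.6 ± 1.52 in dKO sham (SD, n = 2 each), a difference of -1.33 (SE 0.13) in log2(FPKM + 1), the scale of all changes given here. In WT ganglia the direction was the opposite, with 16.8 ± 0.161 FPKM in WT SNI and 3.98 ± 0.528 in WT sham and a difference of 1.84 (SE 0.13). The means differed 4.22-fold in WT ganglia, and the dKO sham mean was 2.68-fold the dKO SNI mean. The 4 groups share one estimate of spread, which gives the same SE in each comparison.

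The starting level differed as much as the response. In sham-operated ganglia the Tyrp1 mean was 6.17-fold higher in dKO than in WT, a difference of 2.36 (SE 0.13), and after axotomy the dKO mean was lower than that of WT by a difference of -0.81 (SE 0.13). The injury change in dKO minus that in WT was -3.17 (SE 0.19). These 5 differences use the values that chose the gene, and the comparisons share libraries.

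The 4 libraries without Y-linked transcripts (dKO sham and WT SNI) had 16.7 to 25.6 FPKM of Tyrp1, and the 4 with them (dKO SNI and WT sham) had 3.61 to 9.83 FPKM. With both dKO sham and WT SNI on one side, the opposite response to surgery and the difference in Y-linked transcripts cannot be told apart in this design. Within the libraries that had Y-linked transcripts, the dKO SNI values of Tyrp1 exceeded those of WT sham, and within those that lacked them the dKO sham values exceeded those of WT SNI. In these bulk samples, fewer cells of a type and less RNA per cell cannot be told apart either.

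**Figure D1:**
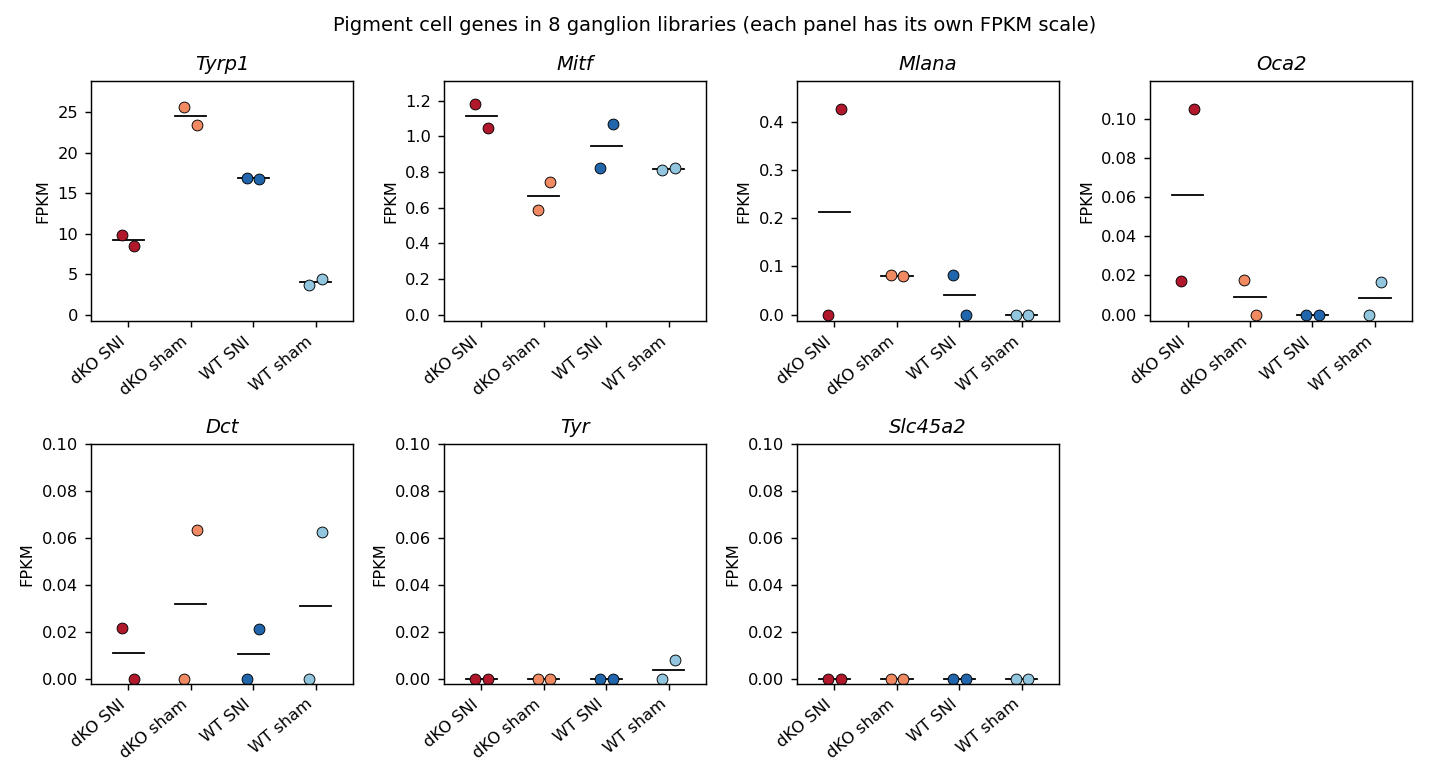
FPKM of the 7 genes in each library by group, with horizontal bars at group means. Tyrp1 lies between 3.61 and 25.6 FPKM with all groups apart, Mitf between 0.586 and 1.18 FPKM, and the other 5 genes reach at most 0.427 FPKM.

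Dct, which acts beside Tyrp1 in eumelanin synthesis, was listed at 0.0217 and 0 FPKM in dKO SNI, 0 and 0.0635 in dKO sham, 0 and 0.0213 in WT SNI and 0 and 0.0623 in WT sham. Each group had 1 library at 0, so all groups overlapped. Tyr, the rate-limiting enzyme, was listed at 0 in 7 libraries and at 0.00799 FPKM in WT sham 2. Tyr thus had almost no transcript although its promoter shares the run of 11 bases with that of Tyrp1. C1qb, a complement gene of macrophages whose promoter also holds that run, was at 167 and 204 FPKM in dKO SNI, 19.0 and 26.2 in dKO sham, 104 and 99.0 in WT SNI and 13.8 and 10.9 in WT sham.

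Mlana was listed at 0 and 0.427 FPKM in dKO SNI, 0.0812 and 0.0798 in dKO sham, 0.0812 and 0 in WT SNI and 0 in both WT sham libraries. Its highest value came from a single dKO SNI library whose partner was at 0. Among the transporters, Oca2 was listed at 0.0173 and 0.105 FPKM in dKO SNI, 0.0176 and 0 in dKO sham, 0 in both WT SNI libraries and 0 and 0.0169 in WT sham. Slc45a2 was listed at 0 in all 8 libraries.

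Across these 5 genes, 27 of 40 values were 0 and the highest was 0.427 FPKM, below the 1 FPKM in at least 2 libraries that a gene needed to be tested. With that filter lifted, limma with Benjamini-Hochberg adjustment called none of the 4 that had any value above 0, among 17956 genes of which 34.9% were called in dKO SNI against dKO sham and 12.7% in WT SNI against WT sham. The shares were 0.0334% in dKO sham against WT sham, 10.5% in dKO SNI against WT SNI and 0.0278% for the difference between the injury responses. In dKO SNI against dKO sham the adjusted p was 0.676 for Dct, 0.493 for Mlana and 0.263 for Oca2. A change at such levels was hardly detectable, so these p-values do not show an equal response.

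Mitf was at 1.18 and 1.05 FPKM in dKO SNI, 0.586 and 0.746 in dKO sham, 0.822 and 1.07 in WT SNI and 0.811 and 0.825 in WT sham. Both dKO SNI libraries lay above both dKO sham libraries, while WT SNI overlapped WT sham. Mitf passed the filter only through 3 injured libraries that reached 1 FPKM, both of dKO SNI and WT SNI 2.

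In dKO SNI against dKO sham, Mitf differed by 0.35 (SE 0.14; limma, Benjamini-Hochberg adjusted p = 0.0716), in the direction opposite to that of Tyrp1. In WT SNI against WT sham it differed by 0.09 (SE 0.14, limma adjusted p = 0.658). Between genotypes it differed by -0.13 in dKO sham against WT sham (limma adjusted p = 0.760) and by 0.12 in dKO SNI against WT SNI (limma adjusted p = 0.545). The injury change in dKO minus that in WT was 0.25 (SE 0.20, limma adjusted p = 0.570). Over genes tested without the filter the dKO injury difference passed (adjusted p = 0.0371), again as a higher value in dKO SNI.

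Of the 6 partners, only Mitf could be tested under the filter, and it was called in 0 of 5 comparisons. Called genes made up 48.4% of the 12884 tested in dKO SNI against dKO sham, 23.0% in WT SNI against WT sham, 0.155% in dKO sham against WT sham and 24.1% in dKO SNI against WT SNI. For the difference between the injury responses the share was 0.0543%, or 7 genes, which became 20 without WT sham 1, 15 without dKO SNI 1 and 11 without WT SNI 2. The 20 genes called in dKO sham against WT sham became 31 without WT sham 1 and 11 without dKO sham 2. The 7 genes called for the difference between the injury responses were Tyrp1, by the way it was chosen, the 4 Y-linked genes, Asprv1 and Gm38495. A single uncalled gene is no departure from any of these shares.

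The label melanocyte genes was set against 11 marker genes of melanocytes. Apart from Tyrp1 and Mitf, the 9 others, which include Pmel, the fibril protein of melanosomes, stayed below 1 FPKM in all 8 libraries, with a highest value of 0.537 FPKM. Their sum was 0.566 and 1.04 FPKM in dKO SNI, 0.620 and 0.879 in dKO sham, 0.634 and 0.564 in WT SNI and 0.240 and 0.379 in WT sham. Tyrp1 alone exceeded that sum in every library. The transcripts that define a melanocyte were thus at or near 0 in ganglia where Tyrp1 reached 25.6 FPKM.

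Markers of other cells were set beside Tyrp1, and their part in its values was not tested. The sum of 12 macrophage markers was 1292 and 1189 FPKM in dKO SNI, 169 and 259 in dKO sham, 506 and 699 in WT SNI and 142 and 149 in WT sham, so it was higher after axotomy in both genotypes. Of these markers 11 rose in dKO SNI and 11 in WT SNI by limma, and none fell. Over all genes tested, 23.8% rose in dKO SNI and 13.6% in WT SNI. Trem2 and Cd163 passed the filter only through the 4 SNI libraries, and Acp5 only through the 2 dKO SNI libraries. These genes had to be higher there to be tested. The sum of 12 Schwann and satellite glia markers was 4122 and 3633 FPKM in dKO SNI, 3876 and 5481 in dKO sham, 4487 and 4014 in WT SNI and 3479 and 2946 in WT sham. Mast cell markers summed to 30.0 and 43.2 FPKM in dKO SNI, 8.72 and 17.9 in dKO sham, 14.9 and 24.9 in WT SNI and 5.55 and 6.85 in WT sham. Of the mast cell markers tested, 4 of 7 rose in dKO SNI and 3 of 7 in WT SNI. Hpgds passed the filter only through the 4 SNI libraries and Gata2 only through the 2 dKO SNI libraries. Both had to be higher there to be tested. Of the 12 glial markers, 3 rose and 2 fell in dKO SNI, while 1 rose and 1 fell in WT SNI. Over all genes tested, 24.6% fell in dKO SNI and 9.38% in WT SNI, so the glial counts were close to the shares of all genes. With single libraries left out, 3 to 7 mast cell markers rose in dKO SNI and 1 to 4 in WT SNI, the 1 being without WT SNI 2. The glial sum had the order of group means that Tyrp1 had, with 3877 FPKM in dKO SNI, 4679 in dKO sham, 4250 in WT SNI and 3212 in WT sham. Its dKO SNI, dKO sham and WT SNI libraries overlapped, and its highest library was 1.86-fold the lowest, against 7.10-fold for Tyrp1. The macrophage and mast cell sums were highest in dKO SNI and WT SNI.

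Of 22 meningeal markers 16 were tested, and 10 rose and 2 fell in dKO SNI against dKO sham. In WT SNI against WT sham, 11 were higher and 2 lower. Slc6a20a, among the 16, passed the filter only through dKO SNI 2 and WT SNI 2, at 1.68 and 2.15 FPKM. Over all genes tested, 23.8% rose and 24.6% fell in dKO SNI, and 13.6% rose and 9.38% fell in WT SNI. The 11 became 2 without WT sham 2. Cdh1, a cadherin, was at 12.1 and 8.73 FPKM in dKO SNI, 29.0 and 26.3 in dKO sham, 22.4 and 17.7 in WT SNI and 36.9 and 35.8 in WT sham. Foxd1, a transcription factor, was at 6.09 and 7.81 FPKM in dKO SNI, 1.96 and 2.14 in dKO sham, 3.29 and 2.54 in WT SNI and 1.33 and 0.711 in WT sham. In dKO sham against WT sham, 15 of the 16 markers were not called, among them Cdh1 with a difference of -0.38 and Foxd1 with 0.61. The sum of the 22 meningeal markers was 154 and 338 FPKM in dKO SNI, 89.7 and 114 in dKO sham, 155 and 290 in WT SNI and 118 and 70.4 in WT sham. A large part of that sum was Ptgds alone, at 78.5 and 244 FPKM in dKO SNI and 30.3 and 44.5 in dKO sham. In WT SNI Ptgds was at 91.2 and 213 FPKM, and in WT sham at 56.1 and 14.1. The gene called between the sham groups was Aldh1a2, the retinoic acid enzyme of the meninges, at 3.95 and 6.15 FPKM in dKO SNI, 3.55 and 4.34 in dKO sham, 3.12 and 4.69 in WT SNI and 0.656 and 0.838 in WT sham. It was higher in dKO sham by 1.50 relative to WT sham (SE 0.21, limma adjusted p = 0.0366). That call was lost without any 1 of the 4 sham libraries (adjusted p = 0.0943 to 0.296), without the filter (adjusted p = 0.206) and under quantile scaling (adjusted p = 0.0858).

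Markers of retinal pigment epithelium, the other pigmented cell type in which Tyrp1 is known, gave 4 tested genes, of which 2 rose in dKO SNI and 1 in WT SNI. Of the 10 listed, 5 stayed below 1 FPKM in all 8 libraries, among them Otx2 at 0 and Rpe65 at 0.0266 or less. Among 12 keratinocyte markers 10 stayed below 1 FPKM in all 8 libraries, with Krt5, Dsg3 and Ivl at 0. Of the 2 tested, 1 rose in dKO SNI and 0 were called in WT SNI. These counts rest on single libraries: the 2 became 1 without dKO sham 2 or dKO SNI 2, the 1 in WT SNI became 0 without WT sham 1, WT sham 2 or WT SNI 2, and the keratinocyte count became 0 without dKO sham 1 or dKO SNI 2. Over all genes tested, 23.8% rose in dKO SNI and 13.6% in WT SNI. Among skeletal muscle markers none of 5 tested was called in either injury comparison, with a median difference of 0.10 in dKO SNI and of -2.90 in WT SNI, where WT sham 2 held the high sum given above.

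**Figure D2:**
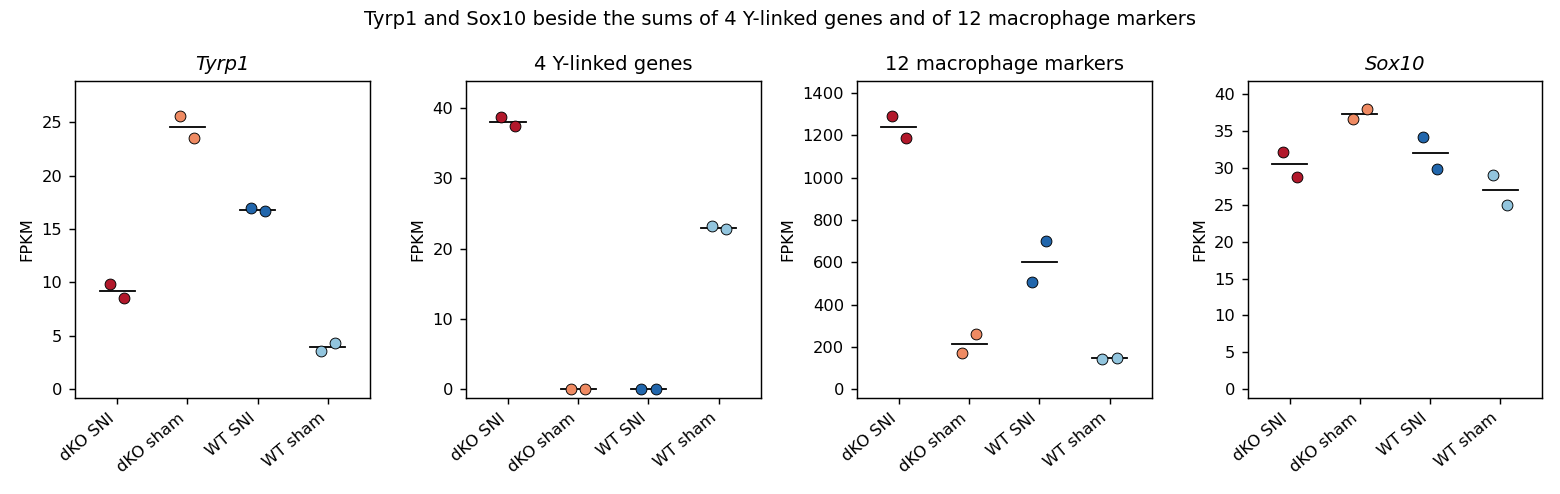
FPKM per library of Tyrp1, of the sum of 4 Y-linked genes, of the sum of 12 macrophage markers and of Sox10, with horizontal bars at group means. Tyrp1 is highest in dKO sham and WT SNI, where the Y-linked sum is at most 0.0109 FPKM, while the macrophage sum is highest in dKO SNI and WT SNI.

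A wider list of 24 melanosome genes, covering melanosome proteins and the machinery of melanosome formation and transport, had 16 genes that passed the filter. In dKO SNI against dKO sham 5 rose and 4 fell, and in WT SNI against WT sham 4 rose and 2 fell. Over all genes tested, 23.8% rose and 24.6% fell in dKO SNI, and 13.6% rose and 9.38% fell in WT SNI. The median change was -0.12 in dKO and -0.06 in WT ganglia, against -0.00 and 0.07 over all genes tested. The WT count of 6 was 3 without WT sham 2. Most of these proteins also serve lysosomes and related organelles in other cells.

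Cd63, a tetraspanin of late endosomes and melanosomes, was at 176 and 190 FPKM in dKO SNI, 62.9 and 69.2 in dKO sham, 116 and 142 in WT SNI and 46.5 and 35.3 in WT sham. It rose by 1.46 (SE 0.17) in dKO SNI and by 1.64 (SE 0.17) in WT SNI, with limma adjusted p = 0.000241 and 0.000349. Rab32, a small GTPase of melanosome biogenesis, was at 10.8 and 9.24 FPKM in dKO SNI, 2.70 and 2.68 in dKO sham, 3.71 and 5.60 in WT SNI and 1.21 and 1.76 in WT sham. It rose by 1.57 in dKO SNI and by 1.17 in WT SNI (SE 0.18 each; limma adjusted p = 0.000234 and 0.00274). Both genes thus moved one way after axotomy in both genotypes, unlike Tyrp1.

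Dtnbp1, a subunit of the complex BLOC-1 that sorts cargo to melanosomes, rose by 0.76 in dKO SNI and by 1.05 in WT SNI (SE 0.12 each; limma adjusted p = 0.00103 and 0.000654). Its means were 35.0 ± 0.187 FPKM in dKO SNI, 20.2 ± 1.66 in dKO sham, 43.9 ± 0.158 in WT SNI and 20.8 ± 0.981 in WT sham (SD, n = 2 each). Syngr1, a synaptic vesicle protein also found in melanosomes, fell by 1.76 in dKO SNI and by 0.95 in WT SNI (SE 0.19 each; limma adjusted p = 0.000182 and 0.00847). Its WT call was lost without WT sham 2 (adjusted p = 0.0674) and without WT SNI 2 (adjusted p = 0.0710).

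The list of 27 genes of the melanocyte lineage and its signals, 26 of them in the table, had 19 tested. In dKO SNI against dKO sham 4 rose and 3 fell, and in WT SNI against WT sham 5 rose and none fell. Snai2 passed the filter only through the 4 SNI libraries and Sox9 only through 3 of them. Both had to be higher there to be tested. Over all genes tested, 23.8% rose and 24.6% fell in dKO SNI, and 13.6% rose and 9.38% fell in WT SNI. The median change of the lineage genes was 0.02 in dKO and 0.24 in WT ganglia, against -0.00 and 0.07 over all genes tested. The WT count was 2 without WT sham 1, 1 without WT sham 2 and 1 without WT SNI 2. The dKO count of 7 was 4 without dKO SNI 2, and the 4 that rose became 1 without that library, 2 without dKO sham 1, 2 under quantile scaling and 2 where 1 FPKM was required in at least 4 libraries.

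Snai2, a neural crest transcription factor, rose by 1.02 in dKO SNI and by 1.01 in WT SNI (SE 0.15 each; limma adjusted p = 0.000687 and 0.00209). Its level was 1.96 and 1.98 FPKM in dKO SNI, 0.391 and 0.541 in dKO sham, 1.33 and 1.83 in WT SNI and 0.286 and 0.256 in WT sham. Snai2 passed the filter only through the 4 SNI libraries, so it had to be higher there to be tested. Kit, the receptor tyrosine kinase that melanoblasts need and some sensory neurons carry, was at 7.21 and 5.93 FPKM in dKO SNI, 13.7 and 10.6 in dKO sham, 10.8 and 9.45 in WT SNI and 10.3 and 12.3 in WT sham. It fell by 0.79 in dKO SNI (SE 0.16, limma adjusted p = 0.00374), and the difference in WT SNI was -0.14 (limma adjusted p = 0.549). The interaction test for Kit gave -0.65 (SE 0.23, limma adjusted p = 0.285).

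Bcl2, a survival factor of melanocytes and neurons, fell by 0.87 in dKO SNI (SE 0.13, limma adjusted p = 0.000919) and differed by -0.37 in WT SNI (limma adjusted p = 0.0764). Atrn, a coreceptor in the switch of pigment type, fell by 0.74 in dKO SNI (SE 0.16, limma adjusted p = 0.00421) and differed by -0.44 in WT SNI (limma adjusted p = 0.0662). The interaction adjusted p was 0.301 for Bcl2 and 0.541 for Atrn, so a different response in the 2 genotypes was not shown for either.

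Sox10, a neural crest factor that works with Mitf in melanocytes and is also a marker of glia, was at 32.2 and 28.8 FPKM in dKO SNI, 36.6 and 38.1 in dKO sham, 34.2 and 29.9 in WT SNI and 29.1 and 25.1 in WT sham. It differed by -0.28 in dKO SNI and by 0.24 in WT SNI (SE 0.14 each; limma adjusted p = 0.111 and 0.233), and the interaction was -0.52 (SE 0.19, limma adjusted p = 0.294). Its group means stood in the same order as those of Tyrp1, within 1.52-fold from the lowest to the highest library. Ednrb, the endothelin receptor of melanoblasts and glia, was at 22.8 and 18.6 FPKM in dKO SNI, 20.0 and 25.5 in dKO sham, 26.9 and 30.0 in WT SNI and 17.8 and 15.8 in WT sham. It rose in WT SNI by 0.73 (SE 0.16, limma adjusted p = 0.0118), differed by -0.13 in dKO SNI (limma adjusted p = 0.534), and had an interaction of -0.85 (SE 0.22, limma adjusted p = 0.236). The Ednrb call was lost without WT sham 2 (adjusted p = 0.0956) and without WT SNI 2 (adjusted p = 0.0835). Both genes were picked here after their values were seen.

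Between genotypes, none of the 16 melanosome and 19 lineage genes tested was called in dKO sham against WT sham. In dKO SNI against WT SNI, 1 melanosome gene rose and 2 fell, and 0 lineage genes rose and 2 fell, where 10.7% of all genes tested rose and 13.4% fell. Both counts were 0 without WT SNI 1 or without dKO SNI 2, where the number of calls over all genes was 10 and 11, against 3106 with all libraries. The lineage count was also 0 without WT sham 1, without WT sham 2 or without the filter.

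**Figure D3:**
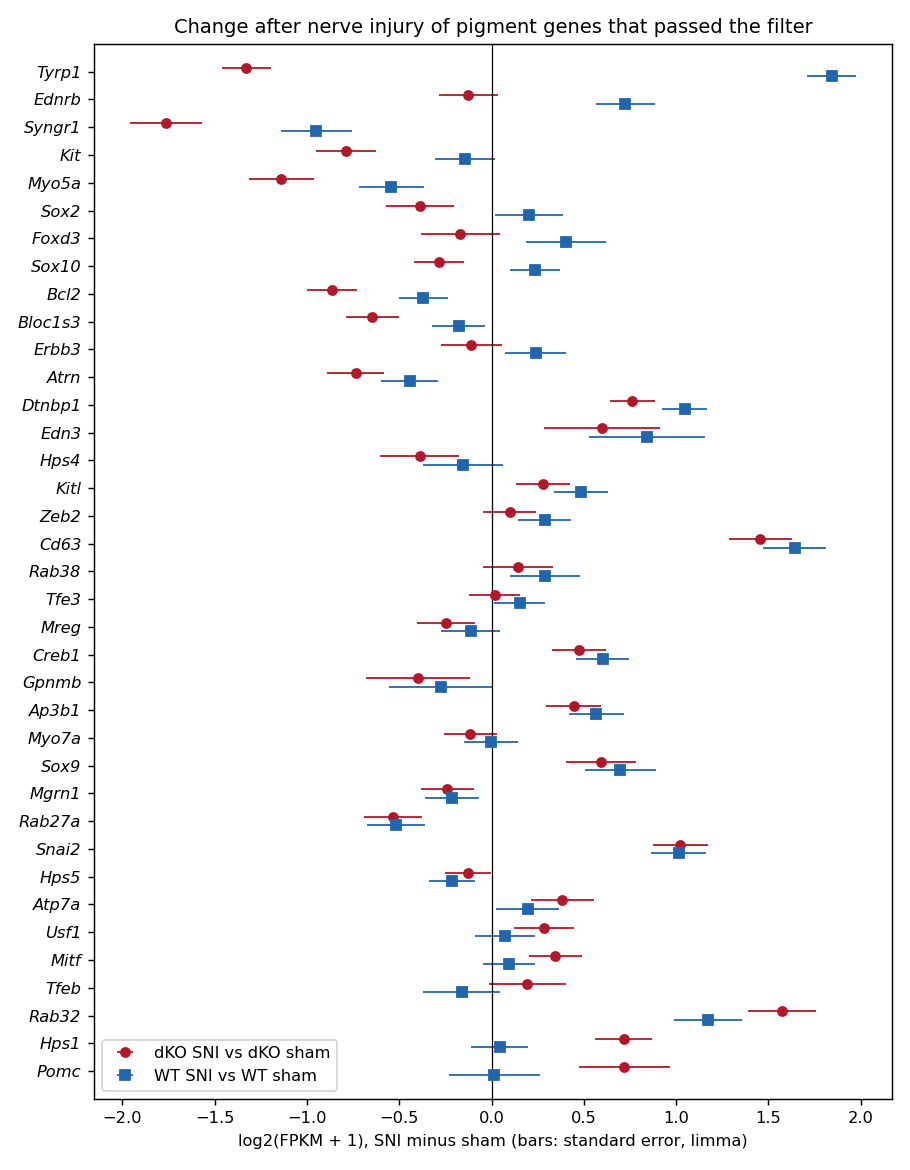
Change after axotomy in log2(FPKM + 1) for the pigment genes that passed the filter, in dKO (circles) and WT (squares) ganglia, with standard errors from limma, ordered from the top by the WT change minus the dKO change. Tyrp1 lies at -1.33 in dKO and 1.84 in WT ganglia, and Cd63, Snai2 and Rab32 lie to the right of 0 in both.

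Opposite calls in the 2 injury comparisons were few in the whole table. Tyrp1, which was chosen for this pattern, is left aside here. Called higher in WT SNI and lower in dKO SNI were 5 genes (Hist1h2be, Pdpn, Prss35, Sod3 and Srp54b). A further 6 were called the reverse way, of which 4 were the Y-linked Ddx3y, Eif2s3y, Kdm5d and Uty. None of these genes was in a pigment list. All libraries of dKO sham and WT SNI lay above all those of dKO SNI and WT sham in 124 of 12881 genes (0.963%). Tyrp1 is one of those genes by the way it was chosen.

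The genes most like Tyrp1 over the 8 libraries were ranked by Pearson's r of log2(FPKM + 1), as a description of libraries that share groups and normalization. The leading 8 were Pdpn (0.969), Chst3 (0.966), Elk1 (0.945), Hnrnph3 (0.931), P4ha1 (0.925), Acvr2a (0.922), Ccdc61 (0.918) and Acrbp (0.918). By Spearman's rho only 4 of these 8 were among the leading 8. Pdpn, a membrane glycoprotein of lymphatic vessels and meningeal cells, was at 10.9 and 9.78 FPKM in dKO SNI, 13.4 and 13.4 in dKO sham, 10.7 and 12.7 in WT SNI and 7.69 and 7.94 in WT sham. The highest library was 1.33-fold to 2.56-fold the lowest in these 8 genes, against 7.10-fold in Tyrp1.

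No pigment gene was among them. Of 36 other pigment genes tested, Sox10 ranked highest, 35th of 12880 genes with r = 0.85, and Ednrb followed at rank 209 with r = 0.71. Mitf had r = -0.29.

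**Figure D4:**
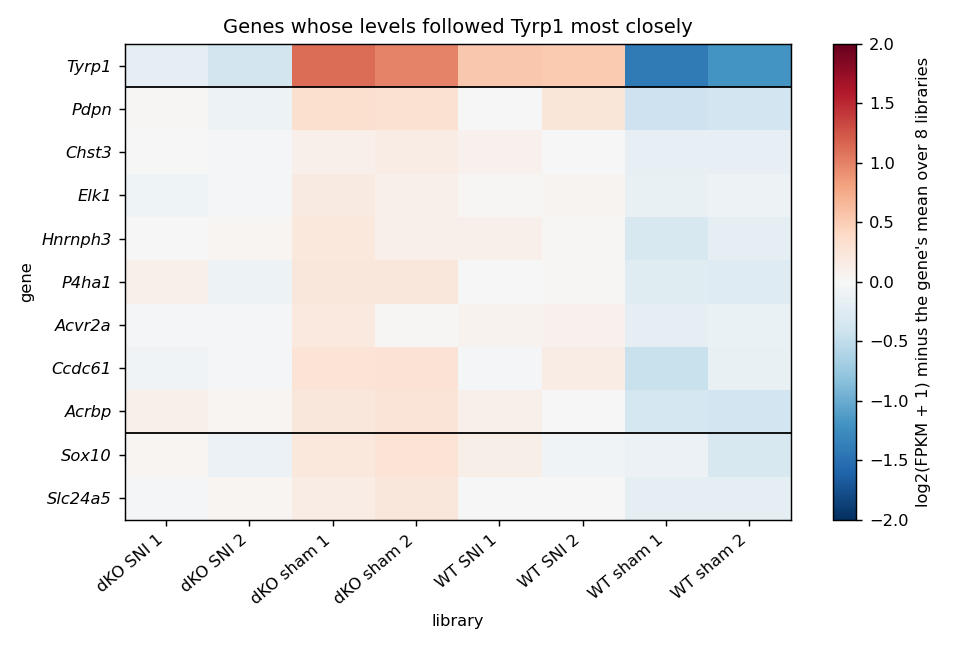
Level of Tyrp1, of the 8 genes most like it and of Sox10 and Slc24a5 in each library, as log2(FPKM + 1) minus the gene's mean over the 8 libraries, red for above and blue for below that mean. The colours are strong for Tyrp1, whose highest library is 7.10-fold the lowest, and faint for the 8 genes, at 1.33-fold to 2.56-fold.

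The genes beside Tyrp1 on chromosome 4 had another order of groups. Lurap1l, 58.9 kb away, was at 2.79 and 3.29 FPKM in dKO SNI, 6.03 and 7.72 in dKO sham, 5.31 and 3.68 in WT SNI and 7.85 and 8.24 in WT sham, so WT sham, where Tyrp1 was lowest, was its highest group. Mpdz, 426.8 kb away, was at 6.65 and 5.94 FPKM in dKO SNI, 11.1 and 8.33 in dKO sham, 8.39 and 7.31 in WT SNI and 9.76 and 10.4 in WT sham. Both neighbours were picked by position, on one side of Tyrp1, and added after their values were seen. On the other side the nearest protein-coding gene, Ptprd, lies 2622.2 kb away. It was at 0.717 to 1.34 FPKM, also highest in WT sham.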

How the data were processed

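The authors deposited 1 table of FPKM values, and lists of tools and builds in the submitters' processing notes hold HISAT2 (2.0.4), StringTie (1.3.0), edgeR, mm10 and GRCm38.p4, without roles. The sources used here do not give annotation, strand setting or read totals, so reads of overlapping antisense genes cannot be separated. The 8 columns were matched to samples by their descriptions. Genes at 1 FPKM or more in at least 2 libraries were tested (12884) on log2(FPKM + 1) with limma 3.58.1 in R 4.3.3, with 1 mean per group over all 8 libraries, a mean-variance trend, two-sided tests and Benjamini-Hochberg adjustment at 0.05. The calculation was tested on simulated data. The members and lists were chosen with earlier results of these data known, and marker lists are general ones written by hand. Named pigment list genes are the 4 of smallest p per list in either injury comparison or between sham groups, the likeness rule names 8 genes, and cell type lists are given as counts and sums, with the meningeal genes named by the same rule. Sox10, Ednrb, C1qb, the neighbours and Slc24a5 were added after their values were seen. Alternatives were the pseudocount, the filter, median or quantile scaling, fewer libraries and a replicate block.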

Additional observations from a re-analysis of the deposited data

Results flagged for a closer look

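Tyrp1 moved in opposite directions after axotomy, lower in both dKO SNI libraries than in both dKO sham libraries and higher in both WT SNI libraries than in both WT sham libraries. The injury change in dKO minus that in WT was -3.17 in log2(FPKM + 1). No test of the difference is given, because the gene was chosen for it.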

How the results depend on the processing

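Tyrp1 kept its direction in every comparison under each alternative run, with an injury change of -1.42 to -1.24 in dKO and 1.73 to 2.06 in WT ganglia. Mitf in WT SNI against WT sham turned to -0.15 (adjusted p = 0.470) under quantile scaling, and its adjusted p ran from 0.470 to 0.994 over the alternatives. The count of called partners of Tyrp1 in dKO SNI against dKO sham was 1 without the filter (Mitf, adjusted p = 0.0371, with 0.0371 to 0.338 over all alternatives) and 0 otherwise, and leaving out single libraries gave 0 in each comparison. Over all genes, 1758 of 2967 WT injury calls were higher, against 1508 of 3024 with median scaling. The 2967 became 1389 without WT sham 1, 1101 without WT sham 2 and 1133 without WT SNI 2, and dKO injury calls numbered 6236, against 3887 without dKO SNI 2. Calls in dKO sham against WT sham numbered 20, against 55 at a pseudocount of 0.1 and 6 without the filter. The labels tie no replicate number to a shared animal or batch, and deviations of same-numbered libraries correlated at -0.188 to 0.254. A replicate block left Mitf uncalled (adjusted p = 0.0872 in dKO SNI against dKO sham), and moved the calls to 47 in dKO sham against WT sham and to 12 in the interaction, against 7 without it. Exchanging the numbers of the WT sham libraries gave 40 and 11. The cause of these changes was not tested. With 2 libraries per group and no read totals, genes below 1 FPKM could not be compared with any precision.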

Other observations

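Slc24a5, a melanosome ion exchanger picked after its values were seen, was the pigment gene whose level was most like that of Tyrp1 (r = 0.89 over 8 libraries), at a level too low for the filter. It was at 0.281 and 0.348 FPKM in dKO SNI, 0.454 and 0.537 in dKO sham, 0.302 and 0.319 in WT SNI and 0.160 and 0.153 in WT sham. It was picked for following Tyrp1, so no test of that pattern is given. Its annotated span overlaps Myef2 on the opposite strand, and reads of the pair cannot be told apart without strand.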
